A study of Chlorocebus sabaeus with 45 samples.

Results

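The 9 genes described here encode proteins that serve gas transport in red blood cells, pass water or urea, or carry blood group antigens. One of them, AHSP, encodes a chaperone of alpha-globin. The genes are CA1, CA2, AHSP, BPGM, RHAG, KEL, AQP1, ERMAP and SLC14A1. They were chosen by symbol from the 33994 genes of the deposited tables, and all 9 passed the filter on low values that left 18753 genes for testing. Whole blood RNA came from 15 juvenile male vervet monkeys (Chlorocebus sabaeus), wild-born on St. Kitts and each from a different troop, in a study of the stress of relocation. Every animal gave a sample on day 0 (Tp1), in the field soon after trapping under ketamine and xylazine, and on day 3 (Tp2) and day 14 (Tp4), in individual quarantine housing under dexmedetomidine and midazolam. The days are those of the sample labels, and the series text and a passage of the study's methods give other days for some samples. There was no group that stayed in the wild, so that in both comparisons with day 0 sedation, place, repeated blood sampling and time since capture cannot be told apart. Sedatives and housing were the same on day 3 and day 14, and between those days time and repeated sampling cannot be told apart. Red cells that have lost their nucleus still hold some RNA when young, and whole blood also holds white cells and platelets. In such a mixture fewer cells of a type and less RNA per cell cannot be told apart.

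Red cells carry oxygen bound to hemoglobin and carry most carbon dioxide as bicarbonate. Carbonic anhydrases inside the cell interconvert carbon dioxide and bicarbonate, 2,3-bisphosphoglycerate lowers the oxygen affinity of hemoglobin, and channels and antigen-bearing proteins of the membrane pass small molecules or stand on the cell surface. Transcripts of these genes accumulate while red cell precursors mature, and part of them persists in reticulocytes, the youngest circulating red cells.

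Levels are FPKM, fragment counts taken per gene length and per library total, scaled between libraries with TMM factors (trimmed mean of M values), and can therefore be compared between genes per length. Between 13216275 and 31469332 fragments per library fell on genes, and the 9 genes together took a median of 0.168% of them on day 0, which had become 0.366% by day 3 and 0.683% by day 14. The median correlation of a library with the others of its day was at least 0.935, and no library was left out. The lowest on day 3, 0.938, was that of animal 8. In the study's supplement the same sample has the lowest RNA integrity number of the series. Erythroid marker genes moved with the day: the summed level of 25 of them ranged from 692 to 28256 FPKM on day 0, from 4911 to 52586 on day 3 and from 9216 to 83880 on day 14, and 22, 25 and 15 of the 25 rose on day 3 vs. day 0, day 14 vs. day 0 and day 14 vs. day 3, with 0 falling. All 11 platelet markers rose on day 3 vs. day 0, 7 of them fell between day 3 and day 14, and 7 of the 11 were above day 0 on day 14 (median log2 fold change 0.70). Of 12 neutrophil markers 8 fell by day 3 and 11 by day 14. Of 6 NK cell markers 5 rose by day 3 and 5 by day 14 (median log2 fold change 0.60 and 1.14). By day 14, 3 of 9 T cell markers had risen, 2 of 6 B cell markers had fallen, and 1 of 8 monocyte markers had risen and 3 fallen, while the 2 endothelial markers tested, at a summed 0.0998 to 0.898 FPKM, did not pass the test in any comparison. Of all tested genes 10.1% rose and 9.04% fell on day 3 vs. day 0. For day 14 vs. day 0 it was 23% and 21% (44% in either direction), and for day 14 vs. day 3 13.9% and 9.75%. The T cell, B cell and monocyte counts on day 14 vs. day 0 lay near that 44%. The part of blood cell composition in the changes below was not tested.

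All 9 genes rose on day 14 vs. day 0, by a log2 fold change between 1.82 (SLC14A1) and 2.87 (AHSP), and 8 of the 9 had already risen on day 3. The largest rise by day 3 was that of AQP1, the water channel of the red cell, and BPGM, the enzyme that makes 2,3-bisphosphoglycerate, was the gene that did not pass the test across all genes there (by the exact sign-flip permutation test over the 15 animals, p = 0.025, not adjusted). Between day 3 and day 14 the genes of the 4 proteins that work inside the cell (CA1, CA2, AHSP and BPGM) and SLC14A1 rose. The changes of AQP1, KEL, ERMAP and RHAG, all genes of membrane proteins, did not pass the test across all genes in that interval. By the sign-flip test over animals, however, the change of ERMAP had p = 0.026, not adjusted. Those of RHAG, KEL and AQP1 had p from 0.0646 to 0.163 by the same test, also not adjusted. In limma with the animal as a block and an adjusted p-value under 0.05, 8 of the 9 rose and 0 fell from day 0 to day 3, where 19.2% of all tested genes were called (10.1% up and 9.04% down). From day 0 to day 14 it was 9 of 9, against 44% of all tested genes (23% up and 21% down). For the step from day 3 to day 14 it was 5 of 9, against 23.7% (13.9% up and 9.75% down). The median log2 fold change of the 9 genes was 1.45, 2.32 and 0.87 in the 3 comparisons, and that of all tested genes 0.01, −0.02 and −0.02. Without TMM scaling the median of all genes on day 14 was −0.36 vs. day 0 and −0.35 vs. day 3, and that of the 9 genes was then 1.89 and 0.49, while 8, 9 and 4 of the 9 rose. Of all genes 1742 were then up and 9360 down from day 0 to day 14, against 4316 up and 3937 down with TMM, and 933 up and 8641 down from day 3 to day 14, against 2616 and 1829. With one mean per day and no block, 5, 9 and 2 of the 9 rose. With the RNA integrity number of each sample as a covariate beside the block, 7, 9 and 2 rose: AHSP lost its call on day 3 (log2 fold change 1.20, against 1.30 without the covariate, adjusted p = 0.103), and AHSP, CA2 and SLC14A1 lost theirs between day 3 and day 14 (1.48, 1.19 and 0.89, against 1.58, 1.23 and 0.82, adjusted p = 0.0607, 0.0631 and 0.0601).

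**Figure D1:**
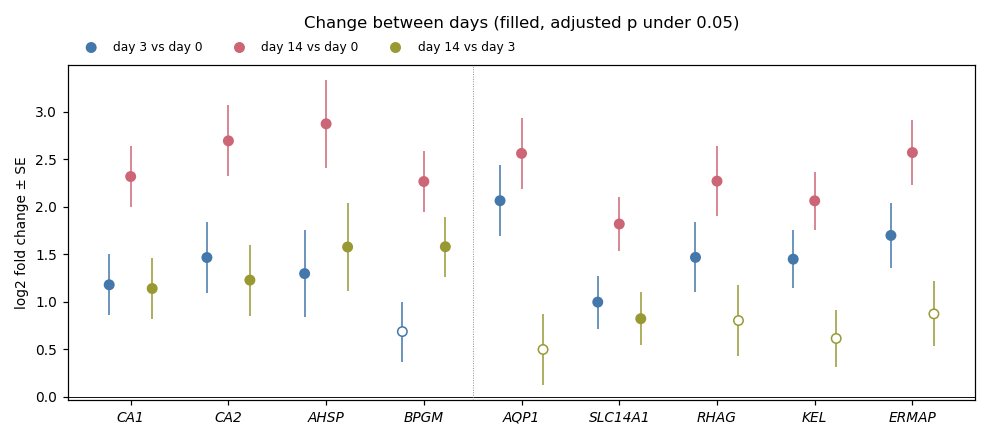
Log2 fold change (vertical axis, ± SE from limma with the animal as a block, 15 animals) of each gene on day 3 vs. day 0, day 14 vs. day 0 and day 14 vs. day 3. Filled points passed an adjusted p-value of 0.05; all 9 did on day 14 vs. day 0, all but BPGM on day 3 vs. day 0, and CA1, CA2, AHSP, BPGM and SLC14A1 on day 14 vs. day 3. The dotted line separates genes of proteins inside the cell from those of membrane proteins.

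Carbonic anhydrases I and II, encoded by CA1 and CA2, are the enzymes that hydrate carbon dioxide within the red cell. CA1 ranged from 76.0 FPKM through a median of 589 to 4008 FPKM on day 0, from 413 through 1063 to 6886 FPKM on day 3, and from 1192 through 2728 to 8991 FPKM on day 14. The days overlapped, but all 15 animals lay above the day 0 median on day 14, and 12 of the 15 day 0 libraries lay below the lowest one of day 14. Animal 7 was the highest on each day and animal 9 the lowest on day 0. The log2 fold change of CA1 was 1.18 (SE 0.32, adjusted p = 0.0104, higher in 13 of 15 animals) on day 3 and 2.32 (adjusted p = 1.86e-06, 14 animals) on day 14 vs. day 0, with 1.14 (adjusted p = 0.0122, 14 animals) between day 3 and day 14. CA1 had the highest level of the 9 genes on every day. Without the block its first and last interval missed the threshold (adjusted p = 0.0503 and 0.0551).

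CA2 encodes the faster of the pair of enzymes and lay below CA1 throughout. It ranged from 15.1 through a median of 86.4 to 889 FPKM on day 0, from 50.6 through 172 to 1644 FPKM on day 3 and from 112 through 518 to 1798 FPKM on day 14. Day 0 and day 14 overlapped, with 11 of 15 day 0 libraries below every day 14 library. CA2 rose in 15 of 15 animals on day 3 (log2 fold change 1.46, SE 0.37, adjusted p = 0.00658), and stood 2.69 above day 0 on day 14 (adjusted p = 1.86e-06, 14 animals). The further 1.23 between day 3 and day 14 (adjusted p = 0.0186, 11 animals) missed the threshold without animal 8 (0.96, adjusted p = 0.0594) and without the block (adjusted p = 0.0625). Within animals CA2 gained more than CA1 from day 0 to day 3, by 0.29 on the log2 scale (95% interval of CA1 minus CA2 −0.47 to −0.10), and CA1 moved more in only 2 of 15 animals (exact two-sided sign-flip permutation test, p = 0.00269, adjusted p = 0.0101 over the 36 pairs of the 9 genes). On day 14 vs. day 0 CA1 minus CA2 was −0.38 (95% interval −0.62 to −0.13, adjusted p = 0.0173). Between day 3 and day 14 the difference was −0.09, with an interval of −0.39 to 0.21 (adjusted p = 0.607).

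AHSP, the chaperone that binds free alpha-globin chains until they pair with beta-globin, had the largest rise by day 14, save with the RNA integrity number as covariate, where that of AQP1 was larger. Its level ran from 5.40 through a median of 55.0 to 237 FPKM on day 0, from 26.2 through 100 to 483 FPKM on day 3 and from 45.3 through 558 to 1226 FPKM on day 14. On day 14, 10 of the 15 libraries exceeded the highest day 0 library, although the lowest, that of animal 13, was below the day 0 median. The change was 1.30 (SE 0.46, adjusted p = 0.0458, 12 animals) on day 3 vs. day 0, 2.87 (adjusted p = 1.09e-05, 13 animals) on day 14 vs. day 0 and 1.58 (adjusted p = 0.0148, 13 animals) on day 14 vs. day 3. The call on day 3 was held in 11 of 25 alternative settings, whose adjusted p-values ran from 0.0216 to 0.103, and the call on day 14 vs. day 0 in all 25. AHSP ranked 16 of 18753 genes by log2 fold change on day 14 vs. day 0.

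BPGM ranged from 62.5 through a median of 261 to 2232 FPKM on day 0, from 101 through 446 to 2276 FPKM on day 3 and from 491 through 1343 to 3558 FPKM on day 14. Day 0 and day 3 overlapped almost completely, with 2 of 15 day 0 libraries below the lowest of day 3. By day 14, 11 of the 15 day 0 libraries lay below the lowest one. On day 3 the log2 fold change was 0.69 (SE 0.32, adjusted p = 0.128, higher in 11 animals), which passed the threshold in 1 of 25 alternatives, that without animal 8 (0.81, adjusted p = 0.0483). The exact two-sided sign-flip permutation test over the 15 animals, a test of this gene alone, gave an unadjusted p = 0.025. On day 14 BPGM was higher in 15 of 15 animals than on day 0 (2.26, adjusted p = 1.92e-06), and in 14 than on day 3 (1.58, adjusted p = 0.001). The last of these calls was held in all 25 alternatives, and BPGM was the sole one of the 9 genes for which that was so in this interval.

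**Figure D2:**
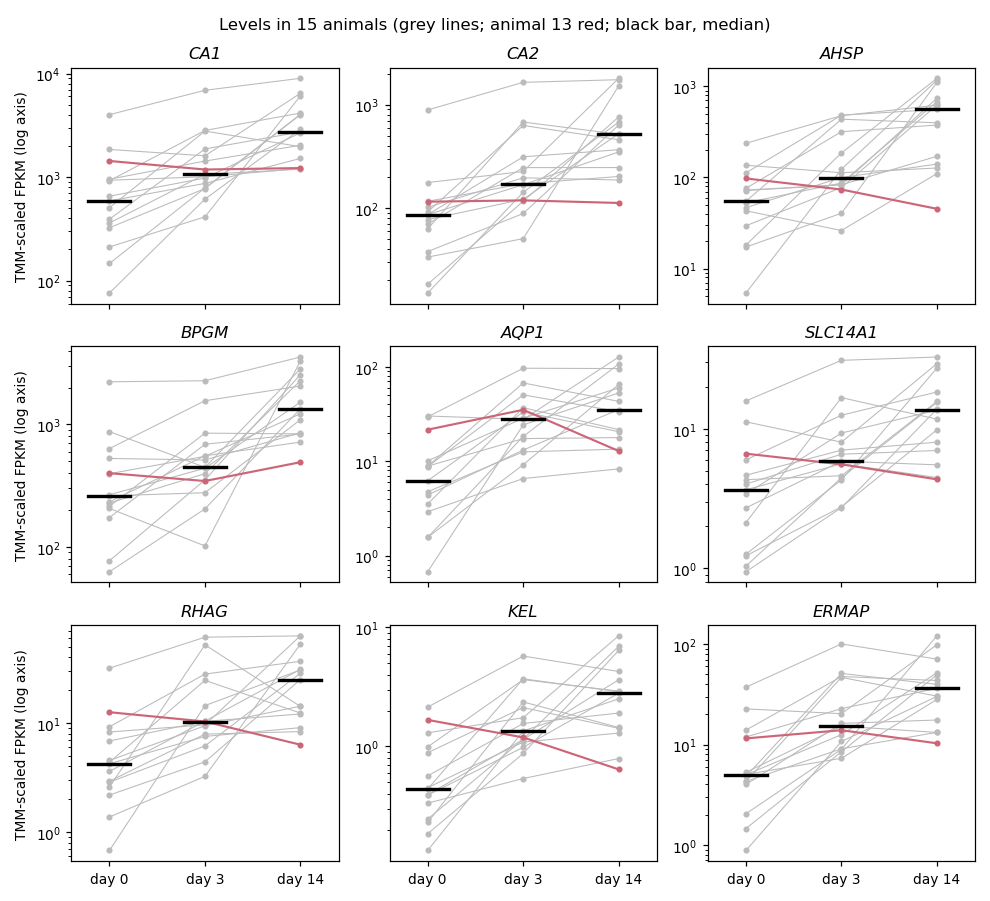
TMM-scaled FPKM (log axis) of each gene on day 0, day 3 and day 14, with a grey line for each of 15 animals, a red line for animal 13 and a black bar for the median. With this scaling the median rises over the 3 days for every gene, most steeply to day 3 for AQP1 (6.21 to 27.8 FPKM) and to day 14 for AHSP (100 to 558 FPKM). Without TMM the median of AQP1 falls from 30.1 FPKM on day 3 to 24.8 FPKM on day 14. The line of animal 13 stays level or descends for most genes.

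AQP1, the water channel that also bears the Colton antigens, ranged from 0.675 through a median of 6.21 to 30.1 FPKM on day 0, from 6.55 through 27.8 to 96.7 FPKM on day 3 and from 8.29 through 35.3 to 127 FPKM on day 14. On day 3, 15 of 15 animals already lay above the day 0 median and 6 above the highest day 0 library, whereas day 3 and day 14 overlapped widely, with 1 of 15 day 3 libraries below the lowest of day 14. The change was 2.06 (SE 0.37, adjusted p = 4.85e-04, 14 animals) on day 3 vs. day 0, rank 7 of 18753 genes, and 2.56 (adjusted p = 3.13e-06, 14 animals) on day 14 vs. day 0. From day 3 to day 14 it was 0.50 (adjusted p = 0.34, 9 of 15 animals higher), and 0 of 25 alternatives called it. Without TMM scaling the median of AQP1 was 7.10, 30.1 and 24.8 FPKM on days 0, 3 and 14. The direction of its median after day 3 thus depends on the scaling. Within animals the first step exceeded the second by 1.56 ± 1.78 (SD, n = 15) on the log2 scale, in 13 of 15 animals (exact two-sided sign-flip permutation test, p = 0.00555, not adjusted). In limma over all genes, a fit chosen after seeing the data, this difference between the steps had an adjusted p of 0.136 for AQP1, and from 0.321 (BPGM) to 0.976 (CA1) for the other genes. The difference passed for 0 of the 9 genes in that fit, against 3.34% of all tested genes, and at an unadjusted p-value under 0.05 for AQP1 alone by both tests.

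SLC14A1 encodes the urea transporter of the red cell and bears the Kidd antigens. Its level ran from 0.944 through a median of 3.66 to 15.9 FPKM on day 0, from 2.72 through 5.86 to 31.1 FPKM on day 3 and from 4.34 through 13.6 to 32.8 FPKM on day 14. The days overlapped, and 10 of 15 day 0 libraries lay below the lowest of day 14. It had the smallest rise of the 9 genes by day 14, save with 1 in place of 0.1 FPKM added, where that of KEL was smaller. The rise was 1.82 (SE 0.28, adjusted p = 6.18e-06, 14 animals), after 0.996 (adjusted p = 0.0122, 13 animals) on day 3 vs. day 0 and 0.82 (adjusted p = 0.0326, 11 animals) between day 3 and day 14. Without the block the first and last of these missed the threshold (adjusted p = 0.0619 and 0.114). The call between day 3 and day 14 was held in 15 of 25 alternatives, and was lost without animal 3, 8, 9, 12, 14 or 15 (0.69 to 0.75, adjusted p from 0.0587 to 0.077), without the filter on low values (adjusted p = 0.0573) and without TMM (adjusted p = 0.0783).

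RHAG, the Rh-associated glycoprotein, forms the membrane complex with the Rh proteins and conducts ammonia. It ranged from 0.681 through a median of 4.24 to 31.8 FPKM on day 0, from 3.25 through 10.3 to 61.1 FPKM on day 3 and from 6.33 through 25 to 63 FPKM on day 14. Overlap was wide between day 3 and day 14, where 3 of 15 day 3 libraries lay below the lowest of day 14, and less so between day 0 and day 14, with 10 of 15. RHAG changed by 1.47 (SE 0.37, adjusted p = 0.00603, 14 animals) on day 3 vs. day 0 and by 2.27 (adjusted p = 1.31e-05, 14 animals) on day 14 vs. day 0. The 0.80 between day 3 and day 14 (adjusted p = 0.109, 12 animals) passed in 1 of 25 alternatives.

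KEL, a membrane endopeptidase that carries the Kell antigens, was the lowest of the 9 genes on every day. It ranged from 0.133 through a median of 0.438 to 2.14 FPKM on day 0, from 0.537 through 1.35 to 5.74 FPKM on day 3 and from 0.640 through 2.80 to 8.51 FPKM on day 14. The lowest day 0 value rested on 17 fragments and the highest on 202. All 15 libraries of day 3 were above the day 0 median, and 9 of 15 day 14 libraries were above the highest day 0 library. The change was 1.45 (SE 0.30, adjusted p = 0.00156, 14 animals) on day 3 vs. day 0, 2.06 (adjusted p = 3.36e-06, 14 animals) on day 14 vs. day 0 and 0.61 (adjusted p = 0.134, 9 animals) on day 14 vs. day 3. At such levels the 0.1 FPKM added before the logarithm understates the change: with 0.01 added it was 2.28 on day 14 vs. day 0, and with 1 added it was 1.20.

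ERMAP, an erythroid membrane protein of the immunoglobulin superfamily that carries the Scianna antigens, ranged from 0.881 through a median of 5 to 37.4 FPKM on day 0, from 7.30 through 15.3 to 101 FPKM on day 3 and from 10.3 through 36.4 to 121 FPKM on day 14. On day 3, 15 of 15 animals were above the day 0 median, and 10 of the 15 day 0 libraries lay below the lowest library of day 3. ERMAP had risen by 1.70 (SE 0.34, adjusted p = 0.00119, 14 animals) on day 3 and by 2.57 (adjusted p = 1.2e-06, 14 animals) on day 14. The 0.87 between these days (adjusted p = 0.0611, 9 animals) lay close to the threshold and passed it in 5 of 25 alternatives, and the exact sign-flip permutation test of this gene alone gave an unadjusted p = 0.026.

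The order of the mean log2 levels was the same on all 3 days: CA1, BPGM, CA2, AHSP, AQP1, ERMAP, RHAG, SLC14A1 and KEL. Of the 24 neighbouring pairs over the 3 days, 19 differed (exact two-sided sign-flip permutation test over 15 animals, adjusted over the 24 pairs). AQP1 and ERMAP did not differ beyond their spread on any day (adjusted p = 0.824, 0.068 and 0.854 on days 0, 3 and 14). RHAG exceeded SLC14A1 by 0.36 ± 0.70 (SD, n = 15) on the log2 scale on day 0 (adjusted p = 0.0766), and by 0.83 ± 0.73 on day 3 (adjusted p = 4.88e-04). CA2 exceeded AHSP by 0.58 ± 0.77 on day 0 (adjusted p = 0.0165) and by 0.40 ± 0.78 on day 14 (adjusted p = 0.0766). CA1 exceeded BPGM in 15 of 15 animals on every day, by 0.91, 1.41 and 0.97 on the log2 scale, the smallest p the 15 animals allow being 6.1e-05. Each gene spread widely among animals: on day 0 the highest library held between 16 times (KEL) and 59 times (CA2) the lowest, and on day 14 between 7.25 times (BPGM) and 27 times (AHSP).

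The 9 genes did not all move alike within animals. Each of the 36 pairs was compared for its difference in log2 change, with exact sign-flip permutation tests adjusted over the 36 pairs of a comparison. From day 3 to day 14, 23 pairs differed, against 16 from day 0 to day 3 and 10 from day 0 to day 14, the last being 6 with 0.01 and 17 with 1 added before the logarithm. Pairs share genes and are not independent. Genes were split by location, known from their biology, into 4 of proteins inside the cell (inside genes) and 5 of membrane proteins (membrane genes). This split was counted after the changes were seen. The inside genes also had the highest levels of the 9 on every day, so location and level cannot be told apart in these counts. From day 3 to day 14, 17 of the 20 pairs of an inside and a membrane gene differed, all 17 with the larger rise in the inside gene. In the first interval 8 of these 20 differed, all 8 with the larger rise in the membrane gene, and 7 of the 8 held BPGM or AQP1. From day 0 to day 14 it was 6 of the 20, all 6 with the larger rise in the inside gene. These were SLC14A1 against CA1, CA2, AHSP and BPGM, and CA2 against RHAG and KEL. AQP1 and ERMAP (2.56 and 2.57) had larger changes than CA1 and BPGM (2.32 and 2.26), but those pairs did not pass. Among the 6 pairs inside the cell 3 differed in the first interval and 4 in the later one, and among the 10 membrane pairs 5 and 2 did.

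BPGM and AQP1 had the largest difference of any pair in the first interval. Both intervals use the day 3 libraries, so their differences are not independent. From day 0 to day 3 AQP1 gained more than BPGM in 14 of 15 animals, and BPGM minus AQP1 was −1.38 on the log2 scale (95% interval −2.02 to −0.74, adjusted p = 0.0011). From day 3 to day 14 BPGM gained more in 15 of 15 animals, by 1.08 (0.68 to 1.48, adjusted p = 0.00146). On day 14 vs. day 0, which leaves day 3 out, BPGM minus AQP1 was −0.30 (95% interval −0.73 to 0.14, adjusted p = 0.251). AHSP and BPGM rose by nearly the same amount in the later interval, with a difference of −0.003 and an interval of −0.31 to 0.31 (adjusted p = 0.985). AQP1 minus KEL was 0.61 in the first interval (adjusted p = 0.011), where KEL moved more in 2 of 15 animals; in the second KEL minus AQP1 was 0.12 (−0.03 to 0.26, adjusted p = 0.131). By day 14 SLC14A1 had risen less than CA1, CA2, AHSP, BPGM, AQP1 and ERMAP, by 0.45 (BPGM) to 1.05 (AHSP), with adjusted p-values from 0.0033 to 0.0374. Its differences from RHAG (0.45, adjusted p = 0.0848) and KEL did not pass.

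**Figure D3:**
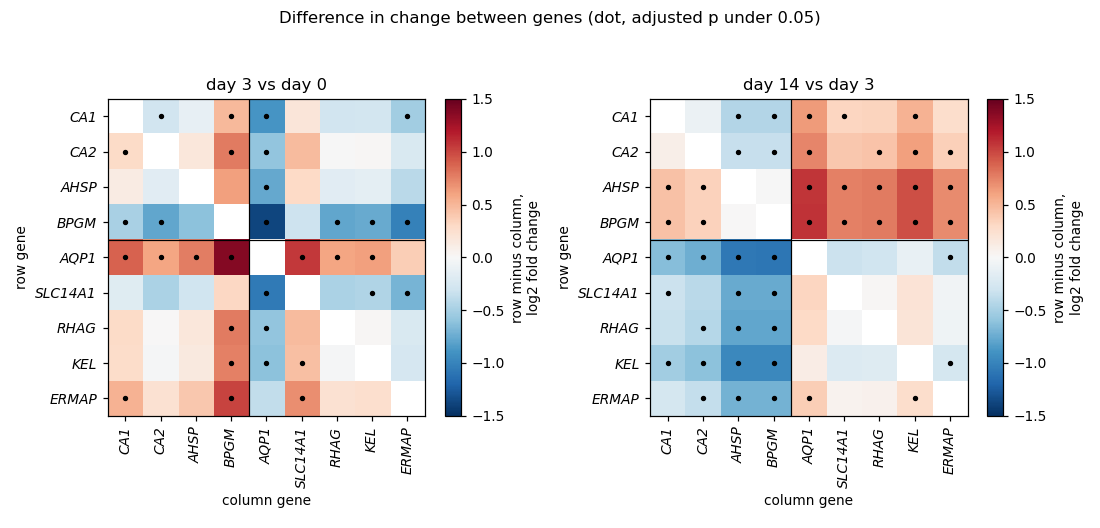
Difference in log2 change between each pair of genes (row minus column, colour) from day 0 to day 3 and from day 3 to day 14, as means over 15 animals, with a dot where the exact sign-flip permutation test passed an adjusted p-value of 0.05. Black lines separate the genes of the 4 proteins inside the cell from those of the 5 membrane proteins. The row of AQP1 is red at left and the rows of AHSP and BPGM are red at right, where 23 of 36 pairs differ.

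Single animals departed from the common course in ways that the 9 genes shared. All 9 genes were higher in 13 of 15 animals on day 14 vs. day 0, in 10 on day 3 vs. day 0 and in 7 on day 14 vs. day 3, and 0 animals had all 9 lower in any comparison. In animal 13 only 1 of the 9, BPGM, was higher on day 14 than on day 0, and the median change was −0.60 on the log2 scale. CA1 in this animal was at 1431 FPKM on day 0, 1183 FPKM on day 3 and 1223 FPKM on day 14. Its AHSP fell from 97.6 through 73.8 to 45.3 FPKM and its KEL from 1.67 through 1.19 to 0.640 FPKM. Over the 9 genes the animal had a median rank of 3 of 15 on day 0 and of 15 on day 14. Of the 25 erythroid markers 3 were higher in it on day 14 than on day 0, against at least 24 of 25 in each other animal, and their summed level went from 24853 to 12140 FPKM. None of its 11 platelet markers and none of its 12 neutrophil markers were higher on day 14, with summed levels that went from 4355 to 1451 FPKM and from 7281 to 1289 FPKM. Neither was found in animal 13 alone, since none of the 11 platelet markers were higher in animal 4 and none of the 12 neutrophil markers in animals 2, 7, 10, 11 and 15. Animal 13 was singled out after its values were seen, and no test was made of it.

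At the other end, animals 8, 9 and 14 had median changes of 5.16, 5.25 and 5.0 from day 0 to day 14, and the next largest was 3.33 in animal 3. The summed erythroid markers of animals 8, 9 and 14 went from 2342 to 83880, from 692 to 48630 and from 1780 to 54965 FPKM, with 25 of 25 higher in each. These 3 animals held the lowest 3 median ranks on day 0 (13, 15 and 14 of 15). Animal 9 had the lowest level of 8 of the 9 genes on that day and animal 14 that of SLC14A1. They differed in timing: animal 9 had a median change of 3.23 by day 3, whereas animal 8 had 1.23 by day 3 and a further 3.88 by day 14. Animals 6 and 11, with 2.82 and 2.90 by day 3, had −0.35 and −0.50 between day 3 and day 14. Animal 15 had 4 of 9 genes higher on day 3 (median −0.12) and all 9 higher on day 14 (median 2.12). Animal 7, highest for 8 of the 9 genes on day 0 and again on day 3, changed by 0.98 from day 0 to day 14. A rank on day 0 and a change from day 0 use the same libraries. For animals 7, 8, 9, 13 and 14 they are therefore not independent observations.

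**Figure D4:**
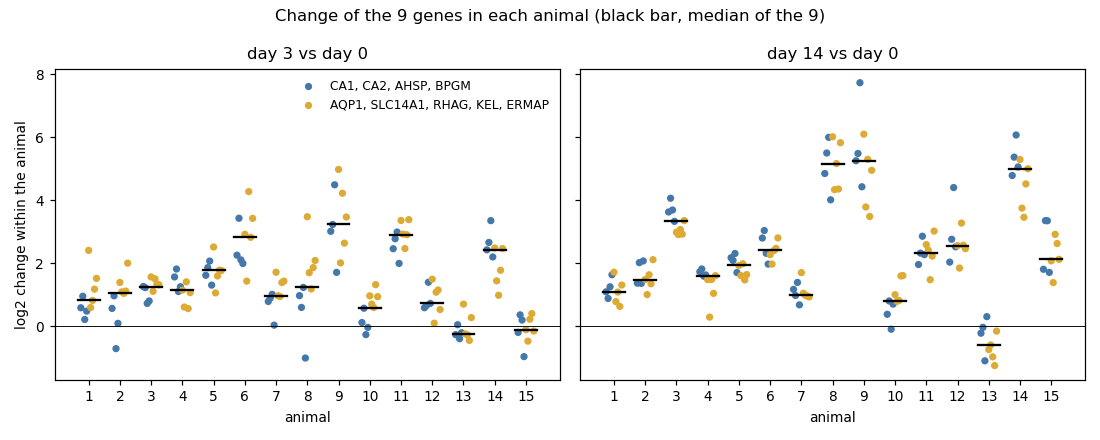
Log2 change of each of the 9 genes (points; blue, inside the cell; yellow, membrane) within each of 15 animals on day 3 vs. day 0 and day 14 vs. day 0, with the median of the 9 as a black bar. In 13 animals all 9 points lie above 0 on day 14, and in animal 13 only BPGM does.

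Across libraries the 9 genes rose and fell together. Over all 45 libraries, which share the change with day, Pearson's r between 2 of the genes ran from 0.809 (BPGM and AQP1) to 0.954 (CA1 and CA2), with a median of 0.908. Within a single day, over 15 animals, the median r for days 0, 3 and 14 was 0.904, 0.791 and 0.878, and the lowest, 0.597, was again that of BPGM and AQP1, on day 3. The 9 genes are read from the same libraries, which differ in red cell marker level, so these values are descriptions. Among 12949 other genes with a mean of at least 1 FPKM, STRADB, TFDP2 and RNF152 were closest to CA1 (r = 0.974, 0.974 and 0.972), and YPEL4, SLC26A3 and SOX6 to CA2 (0.951, 0.951 and 0.946). HBM (mu-globin), BLVRB (biliverdin reductase B) and LOC103225358 were closest to AHSP, with r from 0.921 to 0.936, and BNIP3L, which serves mitochondrial clearance in reticulocytes, RNF14 and TFDP2 to BPGM (0.958 to 0.969). For the membrane proteins they were TMCC2, HDAC11 and KANK2 for AQP1 (0.954 to 0.955), CDKL1, FAM104A and SOX6 for SLC14A1 (0.949 to 0.953), YPEL4, SOX6 and XPO7 for RHAG (0.953 to 0.957), CCS, MARCH8 and XPO7 for KEL (0.967 to 0.972), and SOX6, RNF152 and LOC103232070 for ERMAP (0.960 to 0.961). SOX6, a transcription factor of red cell maturation, was among the closest genes of 4 of the 9. STRADB and TMCC2 also belong to the erythroid marker list.

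The genes that work beside the 9 were read from lists drawn up by function. Their counts stand beside the 19.2% of all tested genes called on day 3 vs. day 0 (10.1% up) and the 44% called on day 14 vs. day 0 (23% up). Among the genes of hemoglobin chains, 3 minor or embryonic ones were tested, and all 3 rose from day 0 to day 14 and from day 3 to day 14: HBM (2.49 vs. day 0, SE 0.44, adjusted p = 3.56e-05), HBQ1 (2.61) and HBZ (2.33). The adult alpha and beta chains were not analysed here. The library kit removes globin RNA, so their levels are those left after that step. On day 3 vs. day 0 HBQ1 rose (1.33, adjusted p = 0.0168), and HBM had 1.19 (adjusted p = 0.0536) and HBZ 0.97 (adjusted p = 0.0656). Of 6 genes that keep hemoglobin and the cell from oxidation or tune globin synthesis, 4 rose on day 3 and 5 on day 14 vs. day 0, led by GPX1 (glutathione peroxidase, 2.77), EIF2AK1 (the heme-regulated kinase, 2.56) and PRDX2 (peroxiredoxin, 2.52).

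RHAG, AQP1 and KEL sit in a membrane whose complexes are anchored to the skeleton. Of 6 genes of the band 3 and ankyrin complex, 4 rose and 1 fell (CD47, −0.24, adjusted p = 0.0264, named after its value was seen) on day 3 vs. day 0, and 5 rose and 0 fell on day 14 vs. day 0. SLC4A1, the band 3 anion exchanger that passes out the bicarbonate made by carbonic anhydrase, went from a mean of 68.5 FPKM on day 0 to 247 on day 3 and 505 on day 14 (log2 fold change on day 14 vs. day 0 3.09, adjusted p = 2.78e-06), and EPB42 (protein 4.2, 2.82) and ICAM4 (the LW antigen, 2.64) followed it. Between day 3 and day 14 the change of SLC4A1 was 0.84 (adjusted p = 0.167). Of 10 genes of the junctional complex, 8 rose on day 3 and 9 on day 14 vs. day 0, with the skeleton proteins ADD2 (3.06), TMOD1 (2.33) and EPB41 (2.22) in front. Of 24 other blood group carriers, 10 rose and 0 fell on day 3, and 14 rose and 1 fell on day 14 vs. day 0, with SLC4A1 and ICAM4 in front. Of 3 glycosyltransferases that build carbohydrate antigens, GBGT1 rose, by 2.62 on day 14 vs. day 0 (adjusted p = 3.46e-07).

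Relatives of the 9 genes from the same families were listed as well. Of 10 other carbonic anhydrases 2 rose on day 3, and 1 rose and 2 fell on day 14 vs. day 0, against 44% of all genes called. CA3 rose by 2.10 on day 14, in 15 of 15 animals (adjusted p = 4.52e-07), from a mean of 5.10 to 23.9 FPKM. CA6 fell by 0.72 (adjusted p = 0.0109), and CA4 had −1.11 (adjusted p = 0.0733) at means under 1 FPKM. Of the 3 other water and urea channels tested, AQP9, a channel of white cells and liver, fell by 1.38 on day 14 vs. day 0 (adjusted p = 7.25e-05), and SLC14A2 had −0.07 (adjusted p = 0.609). AQP3, a channel for water and glycerol that bears the GIL antigen, rose by 1.11 on day 3 vs. day 0 (adjusted p = 0.00101, 14 animals) and fell by 0.83 between day 3 and day 14 (adjusted p = 0.00788), and stood 0.28 above day 0 at the end (adjusted p = 0.318). BPGM branches off glycolysis, of whose 12 genes listed 5 rose and 1 fell on day 14 vs. day 0, with a median of 0.08, near the 44% called among all genes. The largest changes there were those of PKLR, the red cell pyruvate kinase (1.83, adjusted p = 1.71e-04), HK1 (hexokinase 1, 0.72) and MINPP1, a phosphatase that also removes phosphate from 2,3-bisphosphoglycerate (0.63).

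**Figure D5:**
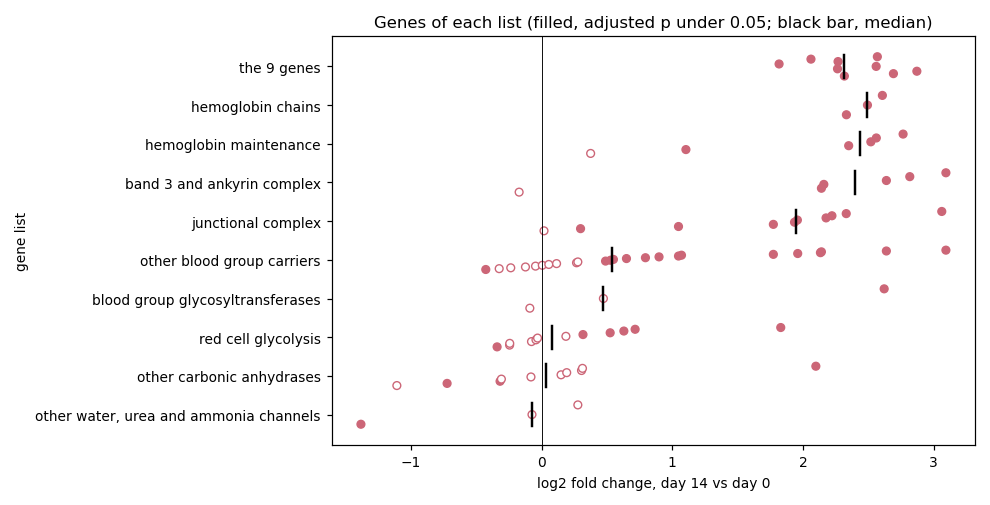
Log2 fold change on day 14 vs. day 0 (horizontal axis) of the 9 genes and of each tested gene of 9 lists drawn up by function, filled where the adjusted p-value from limma was under 0.05, with the median of the list as a black bar. The 9 genes lie between 1.82 and 2.87. Medians are 2.49 for hemoglobin chains, 1.95 for the junctional complex, 0.54 for other blood group carriers, 0.08 for glycolysis and 0.03 for other carbonic anhydrases.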

How the data were processed

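Blood was collected in PAXgene tubes, and RNA was made into stranded libraries after removal of ribosomal and globin RNA. According to the study's methods the authors aligned the reads to the Chlorocebus_sabeus 1.1 genome with STAR, and HTSeq gave fragment counts of each gene. FPKM was the unit deposited, for each sample apart and without scaling between libraries. Whole fragments could be recovered (within 0.02 of a whole number) for all 33994 genes, and these gave the library totals and the filter of more than 0.5 CPM in at least 3 samples. FPKM were divided by TMM factors, and log2(value + 0.1) was fitted in limma 3.58.1 in R 4.3.3, with day as factor and the animal as a block, and p-values were adjusted by Benjamini-Hochberg over 18753 genes. The labels name the same 15 animals on each day, and with the day means removed, libraries of 1 animal correlated at a mean r of 0.328 and those of different animals at −0.0382. Comparisons within animals used exact two-sided sign-flip permutation tests (Python 3.11.15, numpy 2.4.6). The main limma fit and the sign-flip test were tried on simulated data, and the alternative fits were not.

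The 9 genes and the lists were chosen with earlier results of these data known. The text names all 9 genes, up to 3 tested genes per functional list with the largest absolute change on day 14 vs. day 0 and HBM, and the 3 genes closest to each of the 9. One gene that this rule names is not reported here. The RNA integrity number of each sample, given in the study's supplement, was used as a covariate in 1 alternative. Gene positions and sequences were not analysed here.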

Additional observations from a re-analysis of the deposited data

How the results depend on the processing

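On day 14 vs. day 0 all 9 genes rose in every one of the 25 alternatives run for each gene, and no change of a single gene between 2 days turned its direction in any comparison. Without the replicate block 5 of the 9 rose on day 3 vs. day 0 (among 2287 genes called) and 2 on day 14 vs. day 3 (among 2511), where the RNA integrity number as covariate with the block also left 2 (1838 genes called, and 4072 on day 14 vs. day 0) and omission of animal 8 left 3 (2675 genes called). No TMM scaling gave 9574 genes called on day 14 vs. day 3. With 1 animal left out at a time, 7 to 9 of the 9 genes rose by day 3, 9 by day 14, and 3 to 7 between those days, where 2675 to 5184 genes in all were called. The pairs that differed on day 14 vs. day 0 were 6 with 0.01 and 17 with 1 added before the logarithm. Adjusted over the 9 genes alone, which is no independent evidence, a first step that differed from the second was called for 1 gene (AQP1), and for 3 genes without TMM scaling, for 0 with 1 added, for 0 when any of animals 1 to 13 was left out and for 1 without animal 14 or 15, and for 0 in limma over all genes. Its sign turned for AHSP without TMM (0.062), and with 1 animal left out the difference ran from −0.17 to 0.25 for CA1, from −0.018 to 0.56 for CA2 and from −0.058 to 0.35 for SLC14A1, none of it called. The causes were not tested. With 15 animals a sign-flip test cannot go below p = 6.1e-05, and KEL rested on as few as 17 fragments in a library. The p-values over pairs of genes measure spread between animals only.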
